A study of Gallus gallus with 15 samples.

Results

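The immediate early response genes were followed in whole liver of hens that are bred to produce broiler chicks. The list names 35 immediate early and early feedback genes, and the members are those of them with a row in the read count table. By symbol 29 were found, CCN1 and CCN2 were found under their older names CYR61 and CTGF, and IER3 was found by its RefSeq gene ID. FOSB, EGR2 and IER2 had no row under their names and were not analysed here. The 32 members stand among 24154 gene rows, and all 32 were among the 14432 genes that passed the filter on low counts.

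Liver RNA was sequenced from 2 groups of hens, and tissue of both was taken at 65 weeks of age. The control group (5 libraries) had 0 mg/kg metformin in its feed, and the metformin group (10 libraries) had 75 mg/kg body weight from 25 weeks of age, 40 weeks in all. Metformin is used in human medicine against type 2 diabetes. Each diet was given to 45 hens, but whether the libraries are of different hens is not stated in the labels. The p-values therefore weigh the group difference against variation among these libraries, which need not be variation among hens. All 8 hepatocyte markers were read in every library, with albumin at 13648 CPM or more.

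Immediate early genes are transcribed within minutes of a stimulus from factors that are already in the cell, with no new protein needed. Growth factors, stretch, injury and stress hormones act through kinase cascades on the serum response factor, its ELK partners and CREB, and these switch on FOS, JUN, EGR and similar genes. The products include transcription factors, phosphatases that turn the same kinases off, and proteins that destabilise the messages, so the response is short. In mammalian liver these genes are known for their quick induction after partial hepatectomy and after handling of the tissue.

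The libraries did not form 1 population, and this touches every comparison below. Ordered by the share of reads that fell in no gene, they split into 3 sets at gaps of over 5 percentage points. The middle set held all 5 controls (27.8% to 36.3%) with metformin 1, 3 and 4 (37.0% to 43.5%), the low set held metformin 2 and 5 (14.6% to 17.5%), and the high set held metformin 6 to 10 (51.5% to 55.1%). The controls held 21435678 to 26494240 reads in genes, metformin 1, 3 and 4 held 17338990 to 23992777, the low set 33574543 to 41041301 and the high set 8023809 to 11858541. The low and high sets hold no control, so there an effect of the set cannot be told apart from one of metformin. Levels are therefore given by set, in CPM (TMM-scaled reads of a gene relative to the library's reads in the tested genes). The log2 fold change of metformin against control comes from 2 fits, one over all libraries and one that adds the library set as a term (set-adjusted below). The set-adjusted fit rests on the 5 controls against metformin 1, 3 and 4, and the set term does not remove their difference in share. These shares do not overlap, as the controls end at 36.3% and the metformin libraries begin at 37.0%. Within the middle set, too, an effect tied to the share therefore cannot be told apart from one of metformin. In bulk liver, fewer cells of a type and less RNA per cell cannot be told apart.

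Over all libraries, 6 of the 32 members fell and 4 rose with metformin (edgeR quasi-likelihood test, Benjamini-Hochberg adjusted p under 0.05 over all genes tested). The members that fell were FOS, DUSP1, BTG2, RHOB, GADD45B and MCL1, and those that rose were KLF6, ZFP36L1, ZFP36L2 and SGK1. Among all tested genes 5.73% were called lower and 12.5% higher, against 18.8% and 12.5% of the members, so the share of members called higher equals the background. The median log2 fold change of the members was -0.22, and that of all genes tested was 0.03. DESeq2 over all libraries called the same members and also CCN1 lower and KLF9 and GADD45G higher. Of 17138 genes it tested, 1142 were called lower and 3096 higher.

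Set-adjusted, 0 of the 32 members were called by edgeR in either direction, where 0.00693% of all tested genes were called lower and 0.0277% higher. At an unadjusted p under 0.05, 7 members were lower (FOS, DUSP1, BTG1, BTG2, RHOB, GADD45B and MCL1) and 3 higher (KLF10, GADD45G and SGK1), and 11.6% of all tested genes passed that threshold. These counts depended on single libraries. Without metformin 3 they were 1 lower and 3 higher, 12.5% of the members against 9.92% of all genes. Without metformin 4 or control 2 they were 3 lower and 3 higher, 18.8% against 13.6% and 9.98%. The largest share was 37.5%, without control 5 (against 9.6%) and without metformin 10 (against 12.2%). DESeq2 with the same covariate called RHOB lower and KLF10 and SGK1 higher. It called more genes in general, 81 lower and 161 higher of 15565 tested. The set-adjusted value was below 0 for 23 of the 32 members, with a median of -0.33, and for 53.8% of all tested genes, with a median of -0.03. The sign differed between both fits for 4 members, EGR1, IER5, BTG1 and ZFP36L1.

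All values in this paragraph are from the fit without the set term. Without control 2 edgeR called 0 members and 6 of all 14623 genes tested, and without control 5 it called 0 members and 0 of 14680 genes. At an unadjusted p under 0.05 were 13 members (40.6%) against 32.5% of all genes without control 2, and 17 members (53.1%) against 32.9% without control 5. Without control 5 the log2 fold changes of FOS, BTG2 and DUSP1 were -2.30, -1.33 and -1.39. Without control 4 the 1 member called was RHOB, among 55 of all 14632 genes tested. Without control 1 or control 3 the calls were 2 higher (SGK1, ZFP36L2) and 3 lower (DUSP1, MCL1, RHOB). In these fits 876 of 14632 and 415 of 14619 genes were called in all. Without the high set, and in the 8 libraries of the middle set, 0 members were called by edgeR, as were 0 of 13305 and 1 of 13618 genes in all. At an unadjusted p under 0.05 were 13 members (40.6%) against 17.4% of all genes, and 11 members (34.4%) against 10.2%. The log2 fold changes of FOS were -2.35 and -2.23 in these fits, those of RHOB -1.74 and -2.003, and those of BTG2 -1.33 and -1.27.

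**Figure D1:**
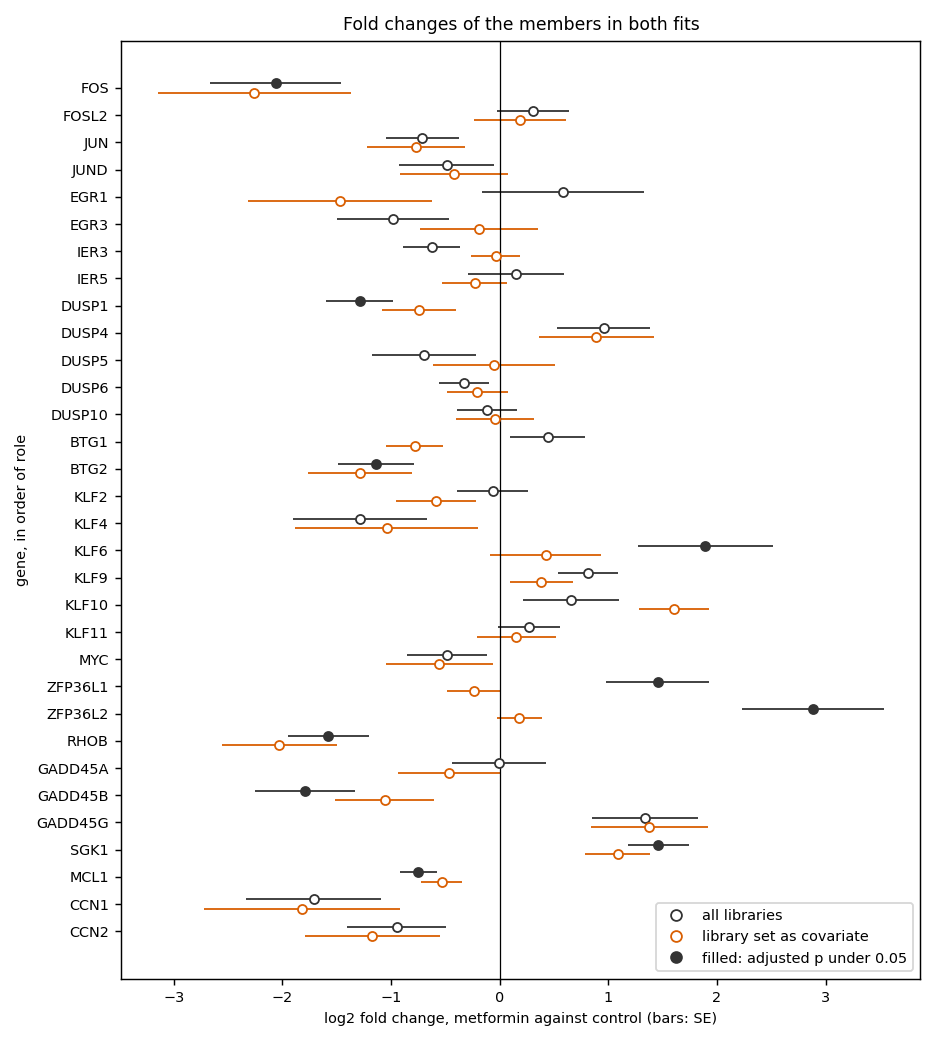
Log2 fold change of metformin against control (x axis, bars show the SE) for each of the 32 members (y axis, in order of role), from all 15 libraries in black and set-adjusted in orange, with filled points for an adjusted p under 0.05. The 10 filled points are all black, and of them ZFP36L2, ZFP36L1 and KLF6 lie farthest from their set-adjusted values.

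FOS, JUN and their relatives form the AP-1 transcription factor. FOS read 155, 575, 90.5, 312 and 72.3 CPM in controls 1 to 5. It read 95.9, 15.6 and 39.6 CPM in metformin 1, 3 and 4, 27.6 and 49.3 CPM in the low set, and 74.5, 41.9, 40.2, 5.93 and 187 CPM in metformin 6 to 10. Controls 2 and 4 were the highest of all libraries, 7 of 10 metformin libraries lay below every control, and metformin 1, 6 and 10 lay inside the control range. FOS fell from 241 ± 209 CPM (SD, n = 5) to 57.7 ± 52.4 CPM (SD, n = 10), a log2 fold change of -2.06 ± 0.61 (SE, edgeR adjusted p = 0.0347). Set-adjusted it had -2.26 ± 0.89 (SE, edgeR adjusted p = 0.331). Without control 2 these values were -1.45 and -1.65, and without metformin 1 the set-adjusted value was -3.12.

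JUN, the usual partner of FOS, read 109, 189, 96.0, 171 and 47.2 CPM in controls 1 to 5, and from 31.7 CPM (metformin 9) through a median of 76.0 to 124 CPM (metformin 1) with metformin. The groups overlapped over most of their range, with 2 metformin libraries below all controls. Its log2 fold change of -0.71 ± 0.33 was not called (SE, edgeR adjusted p = 0.125), and it had -0.77 ± 0.45 set-adjusted. JUND, a more stable relative of JUN, ran from 41.8 to 238 CPM in controls and from 30.1 to 188 CPM with metformin, with -0.49 ± 0.43 (SE, edgeR adjusted p = 0.407) and -0.42 ± 0.50 set-adjusted. FOSL2, a FOS relative, read 1.75 to 5.73 CPM in controls and 2.20 to 6.05 CPM with metformin, with 0.30 ± 0.33 (SE, edgeR adjusted p = 0.503) and 0.19 ± 0.42 set-adjusted.

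EGR1 is a zinc finger factor induced along with FOS. It read 12.2, 29.8, 9.54, 18.2 and 6.25 CPM in controls 1 to 5 and 9.53, 2.53 and 4.49 CPM in metformin 1, 3 and 4. In the low set it read 22.1 and 42.7 CPM, and in metformin 6 to 10 it read 15.8, 14.5, 11.7, 2.65 and 101 CPM. Metformin 5 and 10 exceeded every control, and metformin 3, 4 and 9 lay below every control. The log2 fold change was 0.58 ± 0.75 over all libraries (SE, edgeR adjusted p = 0.575), -0.04 without metformin 10 and -1.47 ± 0.85 set-adjusted (SE, edgeR adjusted p = 0.539). EGR3, a related factor, read 1.97 to 13.4 CPM in controls and 0.897 to 8.26 CPM with metformin, and had -0.98 ± 0.51 (SE, edgeR adjusted p = 0.165) and -0.19 ± 0.54 set-adjusted.

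CCN1 and CCN2 are secreted matrix proteins whose genes respond to serum and to stretch through YAP. CCN1 read 18.6, 117, 15.0, 96.8 and 26.8 CPM in controls 1 to 5, and CCN2 read 35.4, 69.7, 12.5, 66.3 and 32.1 CPM. For both genes controls 2 and 4 stood above the other controls, as they did for FOS and JUN. With metformin CCN1 ran from 2.75 CPM (metformin 9) through a median of 9.41 to 50.4 CPM (metformin 10), and CCN2 from 8.15 CPM (metformin 6) through 17.5 to 56.7 CPM (metformin 10). Neither was called. CCN1 had -1.71 ± 0.62 (SE, edgeR adjusted p = 0.0615) and -1.82 ± 0.90 set-adjusted, and CCN2 had -0.95 ± 0.45 (SE, edgeR adjusted p = 0.130) and -1.17 ± 0.62 set-adjusted.

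**Figure D2:**
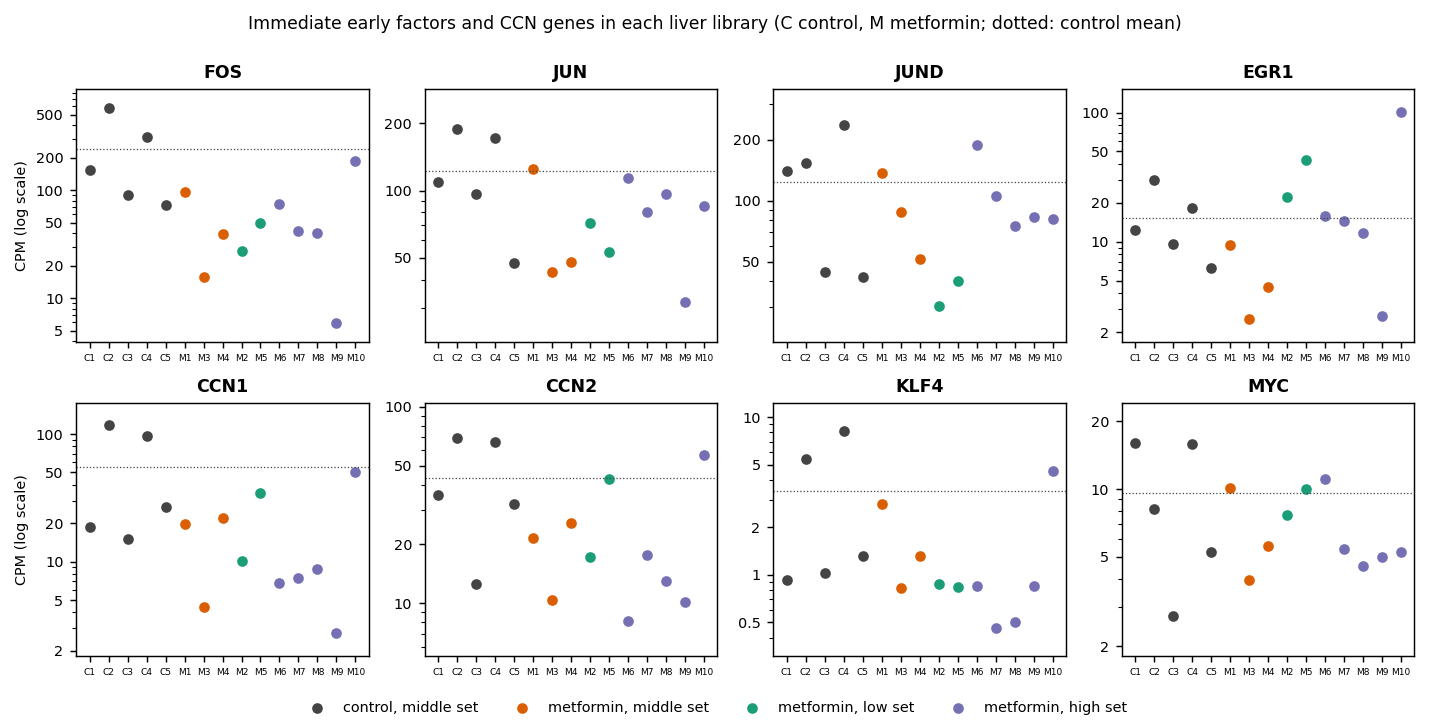
CPM (y axis, log scale) of FOS, JUN, JUND, EGR1, CCN1, CCN2, KLF4 and MYC in each library (x axis, C for control and M for metformin with the replicate number), coloured by group and library set, with the control mean dotted. FOS, CCN1, CCN2 and KLF4 are high together in controls 2 and 4, and each has its highest metformin value in metformin 10. There FOS and CCN1 stay below the control mean. FOS and EGR1 are low together in metformin 3 and 9.

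The members varied more from control to control than most genes did. The median SD of log2(CPM + 0.5) over the 5 controls was 0.57 for the members and 0.32 for all tested genes, and 29 of 32 members were above the latter. CCN1 (SD 1.36), FOS (1.24) and KLF4 (1.22) had a larger SD than 99.0%, 98.8% and 98.6% of tested genes, and their highest control was 7.79, 7.96 and 8.80 times their lowest. BTG1, ZFP36L2 and MCL1 were the members below the median, with SDs of 0.22, 0.21 and 0.30.

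Single libraries were high or low for many members at once. Control 2 was the highest control for 11 members (34.4%, against 14.9% of all tested genes) and control 4 for 10 (31.2%, against 23.5%), and control 5 was the lowest for 18 of 32 (56.2%), where 15.7% of all tested genes had their lowest control value in control 5. Among metformin 1, 3 and 4, metformin 3 was the lowest for 22 members (68.8%, against 37.8% of all tested genes) and metformin 1 the highest for 20 (62.5%, against 34.1%). Among metformin 6 to 10, metformin 9 was the lowest for 13 members (40.6%, against 19.9%) and metformin 10 the highest for 15 (46.9%, against 26.1% of all tested genes). These are descriptions of the libraries, and members read in 1 library share its depth and scaling.

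**Figure D3:**
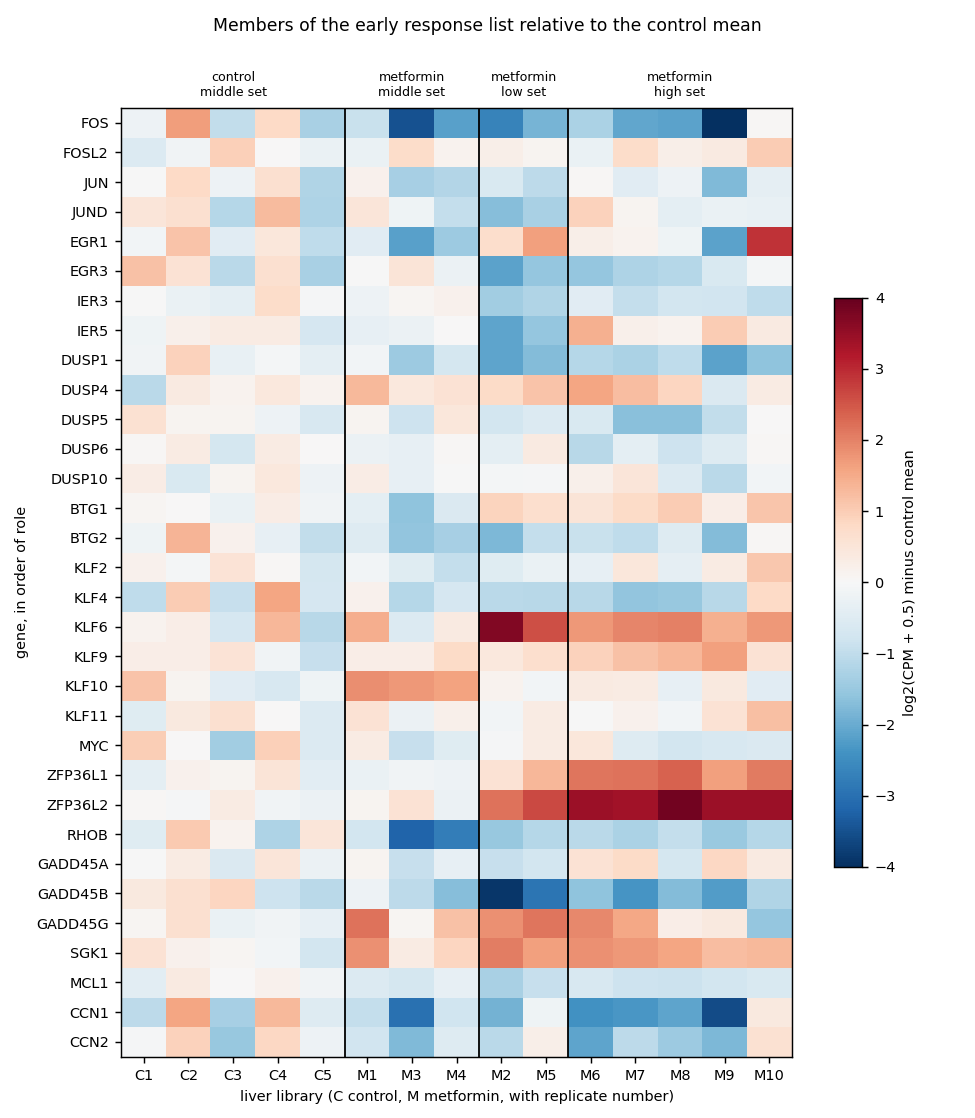
Log2(CPM + 0.5) minus the control mean (colour) of each member (rows, in order of role) in each library (columns, in blocks by group and library set). ZFP36L1, ZFP36L2 and KLF6 are raised in the low and high sets, GADD45B is lowest in the low set, and FOS and RHOB are low in metformin 3 and 4.

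The feedback phosphatases dephosphorylate the MAP kinases that induce them. DUSP1, which acts on p38, JNK and ERK in the nucleus, read 126, 265, 113, 133 and 107 CPM in controls 1 to 5. It read 129.9, 51.1 and 85.7 CPM in metformin 1, 3 and 4, 32.4 and 41.4 CPM in the low set and 63.7, 58.5, 68.3, 31.5 and 45.7 CPM in metformin 6 to 10. All metformin libraries except metformin 1 lay below every control. DUSP1 fell by 1.29 on the log2 scale (SE 0.31, edgeR adjusted p = 0.0251), and had -0.74 ± 0.34 set-adjusted (SE, edgeR adjusted p = 0.417), or -0.43 without control 2 and -1.12 without metformin 1.

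The other 4 phosphatases were not called. DUSP4, an ERK phosphatase, read 0.466 to 2.23 CPM in controls and lay above every control in 7 metformin libraries, with 0.96 ± 0.43 (SE, edgeR adjusted p = 0.110) and 0.89 ± 0.53 set-adjusted. DUSP5 had -0.70 ± 0.48, from as few as 3 reads in a library, DUSP6, which acts on ERK in the cytoplasm, had -0.33 ± 0.23, and DUSP10, which acts on p38 and JNK, had -0.12 ± 0.28 (SE in each case). By edgeR the adjusted p was 0.278, 0.297 and 0.772 in turn. With the set as a term DUSP5, DUSP6 and DUSP10 had -0.05, -0.21 and -0.04.

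The IER proteins are small products of early genes. IER3, which modulates cell survival, read 26.0 to 56.4 CPM in controls, 29.6 to 38.0 CPM in metformin 1, 3 and 4, 12.7 and 14.5 CPM in the low set and 16.7 to 24.4 CPM in the high set. All 7 libraries of the low and high sets lay below every control and none of the others did. How many of all tested genes share that arrangement was not counted. Its log2 fold change was -0.63 ± 0.27 over all libraries (SE, edgeR adjusted p = 0.0960) and -0.04 ± 0.22 set-adjusted. IER5, which is linked to the heat shock factor, read 23.0 to 47.3 CPM in controls, 8.32 and 12.4 CPM in the low set and 41.2 to 102 CPM in the high set, with 0.15 ± 0.44 (SE, edgeR adjusted p = 0.815) and -0.23 ± 0.30 set-adjusted. The low set lay below all controls and 3 libraries of the high set above them, so the value over all libraries averages opposite departures.

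BTG2 and BTG1 are antiproliferative proteins that bind the CCR4-NOT deadenylase. BTG2 read 284, 823, 363, 255 and 163 CPM in controls 1 to 5. It read 227, 109 and 128 CPM in metformin 1, 3 and 4, 93.2 and 168 CPM in the low set and 173, 158, 225, 97.5 and 336 CPM in metformin 6 to 10. In 5 of 10 metformin libraries it lay below every control. It fell by 1.14 on the log2 scale (SE 0.35, edgeR adjusted p = 0.0389), by 0.64 without control 2, and had -1.29 ± 0.48 set-adjusted (SE, edgeR adjusted p = 0.302), or -0.79 without control 2.

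BTG1 departed in opposite directions. It read 78.7 to 118 CPM in controls, 72.8, 30.6 and 63.9 CPM in metformin 1, 3 and 4, which all lay below the controls, and 114 to 204 CPM in the low and high sets, where 6 of 7 libraries lay above them. The log2 fold change was 0.44 ± 0.35 over all libraries (SE, edgeR adjusted p = 0.348) and -0.78 ± 0.26 set-adjusted (SE, edgeR adjusted p = 0.249), or -0.49 without metformin 3. BTG1 was the 1 member whose middle-set metformin libraries all lay below the controls, which 3.56% of tested genes did.

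The Krüppel-like factors are zinc finger regulators. KLF6, which is induced by tissue injury, read 4.39, 4.84, 2.28, 10.6 and 1.55 CPM in controls 1 to 5. It read 11.5, 2.53 and 5.12 CPM in metformin 1, 3 and 4, 56.7 and 26.0 CPM in the low set and 14.3, 16.7, 17.3, 11.2 and 14.3 CPM in metformin 6 to 10. It rose by a log2 fold change of 1.89 ± 0.62 (SE, edgeR adjusted p = 0.0455) and had 0.42 ± 0.51 set-adjusted (SE, edgeR adjusted p = 0.816). The 7 libraries of the low and high sets lay above all controls, together with metformin 1. What share of all tested genes did so in these sets was not counted.

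KLF10, also known as TGF-beta inducible early gene, showed the reverse arrangement. It read 182, 88.8, 60.7, 53.3 and 73.0 CPM in controls 1 to 5 and 304, 278 and 253 CPM in metformin 1, 3 and 4. The low set read 90.3 and 76.1 CPM and the high set 60.8 to 109 CPM, inside the control range. KLF10 was the 1 member whose middle-set metformin libraries all lay above the controls, which 2.99% of tested genes did. The log2 fold change was 0.66 ± 0.44 over all libraries (SE, edgeR adjusted p = 0.268) and 1.60 ± 0.32 set-adjusted (SE, edgeR adjusted p = 0.0817), the smallest adjusted p of the members in that fit. It passed the threshold in that fit without control 1, where its value was 2.01 and 166 of all 14632 genes tested were called higher.

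KLF9, a factor induced by glucocorticoid and thyroid hormone, read 6.77 to 19.97 CPM in controls and lay above them in 7 of 10 metformin libraries, up to 43.2 CPM, with 0.81 ± 0.28 (SE, edgeR adjusted p = 0.0510) and 0.38 ± 0.29 set-adjusted. KLF11, a relative of KLF10, had 0.27 ± 0.29 (SE, edgeR adjusted p = 0.495) and 0.15 ± 0.36 set-adjusted. KLF2 and KLF4 are best known as flow-responsive factors of endothelium. KLF2 read 7.34, 6.09, 9.49, 6.60 and 3.76 CPM in controls 1 to 5 and 3.05 CPM through a median of 5.10 to 14.0 CPM with metformin, overlapping over nearly the whole range, with -0.06 ± 0.33 (SE, edgeR adjusted p = 0.896) and -0.59 ± 0.37 set-adjusted. KLF4 read 0.932, 5.42, 1.03, 8.20 and 1.32 CPM in controls and 0.461 to 4.58 CPM with metformin, with -1.28 ± 0.62 (SE, edgeR adjusted p = 0.133) and -1.04 ± 0.85 set-adjusted. The summed level of 11 endothelial markers ran from 313 to 425 CPM in controls and from 187 to 485 CPM with metformin. Of these markers 1 was called, TIE1, which fell (-0.86, edgeR adjusted p = 0.0321, and -0.50 set-adjusted). The endothelial list had a median of -0.27 (-0.50 set-adjusted), and the part of these markers in the KLF2 and KLF4 levels was not tested.

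MYC, the growth-promoting transcription factor, read 16.1, 8.13, 2.73, 15.9 and 5.26 CPM in controls 1 to 5 and from 3.96 through a median of 5.50 to 11.0 CPM with metformin. No metformin library lay outside the control range, and its log2 fold change was -0.49 ± 0.37 (SE, edgeR adjusted p = 0.336) and -0.55 ± 0.49 set-adjusted.

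ZFP36L1 and ZFP36L2 bind AU-rich elements in early messages and bring them to decay. ZFP36L2 read 9.28, 8.66, 11.3, 8.07 and 7.57 CPM in controls 1 to 5 and 9.66, 13.5 and 7.49 CPM in metformin 1, 3 and 4. The low set read 41.7 and 57.7 CPM, and the high set 99.6, 96.6, 136, 100.4 and 100.5 CPM. ZFP36L1 read 75.7, 114, 108, 143 and 75.4 CPM in controls 1 to 5 and 83.6, 91.2 and 87.3 CPM in metformin 1, 3 and 4, against 151 and 252 CPM in the low set and 443, 457, 521, 312 and 428 CPM in metformin 6 to 10. In both genes the low and high sets stood above every control with no overlap, and metformin 1, 3 and 4 lay inside the control range in ZFP36L1. For such a separation of the low and high sets the share of all tested genes was not counted. Over all libraries ZFP36L2 rose by 2.88 ± 0.66 (SE, edgeR adjusted p = 0.0232) and ZFP36L1 by 1.45 ± 0.47 (SE, edgeR adjusted p = 0.0440). Set-adjusted the values were 0.18 ± 0.21 and -0.24 ± 0.24, with edgeR adjusted p = 0.804 and 0.768.

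RHOB, an early-induced small GTPase of endosomes, read 92.8, 269.9, 144, 55.2 and 182 CPM in controls 1 to 5. It read 77.3, 13.5 and 18.7 CPM in metformin 1, 3 and 4, 45.3 and 58.6 CPM in the low set, and 61.1, 53.7, 66.1, 46.3 and 58.1 CPM in metformin 6 to 10. The metformin libraries lay below 4 of the 5 controls in every set, and 5 of 10 lay below control 4 as well. RHOB fell by 1.58 on the log2 scale (SE 0.37, edgeR adjusted p = 0.0245) and had -2.03 ± 0.53 set-adjusted (SE, edgeR adjusted p = 0.157). The set-adjusted value was -1.64 without metformin 3 and -3.21 without metformin 1.

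The GADD45 proteins are stress sensors that bind the kinase MAP3K4 and cell cycle proteins. GADD45B read 202, 238, 282, 86.7 and 73.1 CPM in controls 1 to 5. It read 134, 73.5 and 46.7 CPM in metformin 1, 3 and 4, 9.86 and 20.03 CPM in the low set and 49.7, 29.7, 46.3, 32.4 and 67.2 CPM in metformin 6 to 10. In 8 of 10 metformin libraries it lay below every control. GADD45B fell by 1.79 on the log2 scale (SE 0.46, edgeR adjusted p = 0.0279) and had -1.06 ± 0.45 set-adjusted (SE, edgeR adjusted p = 0.381).

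GADD45G had values of the opposite sign. It read 9.21 to 18.1 CPM in controls, 54.0, 12.4 and 26.7 CPM in metformin 1, 3 and 4, 42.8 and 52.5 CPM in the low set, and 45.2, 34.7, 14.0, 15.1 and 3.67 CPM in metformin 6 to 10. In 6 metformin libraries it lay above every control, in metformin 10 below. The log2 fold change was 1.34 ± 0.49 over all libraries (SE, edgeR adjusted p = 0.0626) and 1.38 ± 0.54 set-adjusted (SE, edgeR adjusted p = 0.325), or 0.72 without metformin 1. GADD45A had means of 2.36 ± 0.827 CPM in controls (SD, n = 5) and 2.37 ± 1.37 CPM with metformin (SD, n = 10). It lay above every control in 3 metformin libraries, all of the high set, and below every control in 4, with 2 of these in the low set. Its log2 fold change was -0.007 ± 0.43 (SE, edgeR adjusted p = 0.992) and -0.47 ± 0.46 set-adjusted.

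SGK1 is a kinase induced by glucocorticoids and serum that acts on ion channels downstream of PI3K. It read 87.3, 65.4, 60.7, 53.9 and 34.3 CPM in controls 1 to 5. It read 205, 72.4 and 106 CPM in metformin 1, 3 and 4, 239.8 and 179 CPM in the low set and 207, 194, 174, 138 and 143 CPM in metformin 6 to 10. In 9 of 10 metformin libraries, all except metformin 3, it lay above every control. SGK1 rose by 1.46 ± 0.28 (SE, edgeR adjusted p = 0.0180) and had 1.08 ± 0.30 set-adjusted (SE, edgeR adjusted p = 0.170), or 0.57 without metformin 1.

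MCL1, a short-lived survival protein of the BCL2 family, read 216, 371, 296, 330.3 and 262 CPM in controls 1 to 5. It read 200.0, 179 and 231 CPM in metformin 1, 3 and 4, 117 and 154 CPM in the low set and 184, 165, 161, 175 and 189.7 CPM in metformin 6 to 10. Only metformin 4 lay inside the control range, just above control 1. MCL1 fell by 0.75 on the log2 scale (SE 0.17, edgeR adjusted p = 0.0231) and had -0.54 ± 0.19 set-adjusted (SE, edgeR adjusted p = 0.283). Its spread was small on both sides, 295 ± 59.9 CPM in controls (SD, n = 5) against 176 ± 30.2 CPM with metformin (SD, n = 10). No member had every metformin library on 1 side of all controls, which 0.651% of tested genes did above and 1.05% below.

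**Figure D4:**
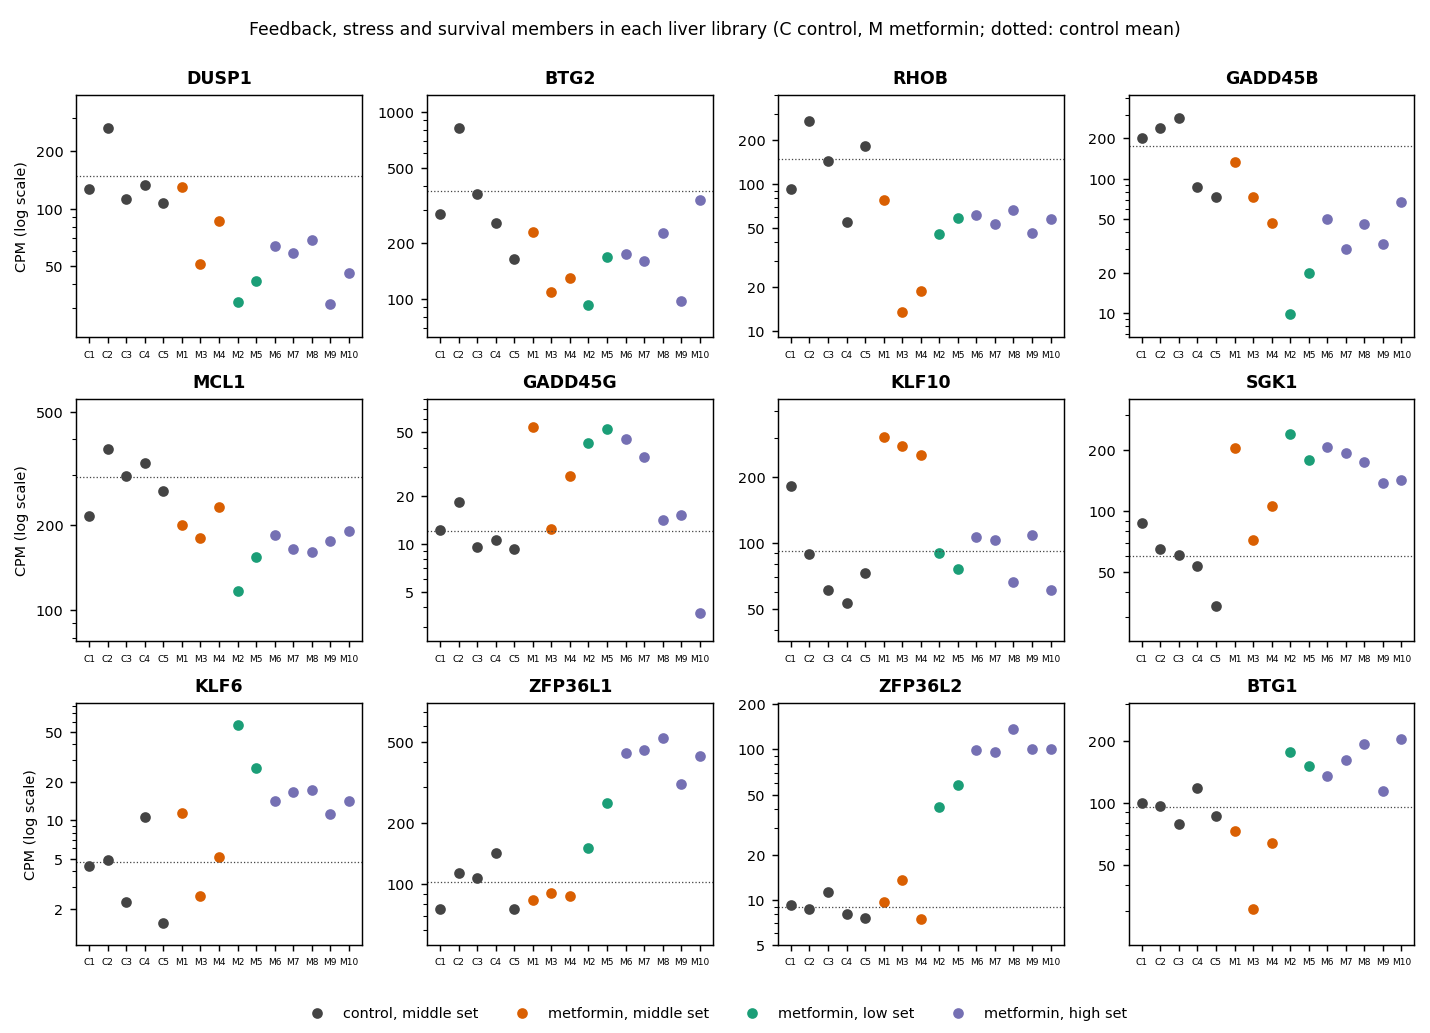
CPM (y axis, log scale) of DUSP1, BTG2, RHOB, GADD45B, MCL1, GADD45G, KLF10, SGK1, KLF6, ZFP36L1, ZFP36L2 and BTG1 in each library (x axis, C for control and M for metformin with the replicate number), coloured by group and library set, with the control mean dotted. MCL1 is lower than the control mean and SGK1 higher in all 10 metformin libraries, KLF10 is raised in metformin 1, 3 and 4, and ZFP36L1 and ZFP36L2 are raised in the low and high sets.

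Of 21 tested upstream kinases and SRF, ELK and CREB factors, which switch these genes on, 8 rose over all libraries, 0 fell and 13 were not called. Their median log2 fold change was 0.54, or -0.14 set-adjusted. Beside the counts of this list and of those that follow, 12.5% of all tested genes were called higher and 5.73% lower. CREBBP, a coactivator of CREB, went from 38.2 ± 5.12 CPM (SD, n = 5) to 65.0 ± 14.8 CPM (SD, n = 10) and lay above all controls in 10 of 10 libraries, with 0.77 (edgeR adjusted p = 0.0245) and 0.44 set-adjusted. The stress kinases MAPK9, a JNK, and MAPK14, a p38, rose by 3.87 and 1.57, with 0.72 and -0.11 set-adjusted, and RPS6KA5, which phosphorylates CREB and histone H3, had 1.31 and 0.68. Of 12 AP-1 partners and MAF factors 3 rose and 1 fell (medians 0.44 and 0.08 set-adjusted). Among them BACH1 and ATF2 rose by 1.25 and 4.18, with 0.57 and -0.31 set-adjusted. JDP2, a repressor that pairs with JUN, fell (-0.87, edgeR adjusted p = 0.0443) and lay below all controls in 10 of 10 libraries, with -0.26 set-adjusted.

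Of 33 other tested early response genes 3 rose and 3 fell, where 12.5% of all tested genes were called higher and 5.73% lower. Their medians were -0.22 and, set-adjusted, -0.15. NFKBIA, the NF-kB inhibitor, and TRIB1, a pseudokinase that limits C/EBP factors, fell with -2.27 and -1.49 (edgeR adjusted p = 0.0113 and 0.0180), and had -1.91 and -1.30 set-adjusted. CSRNP1, a nuclear protein, rose by 1.97, and TOB2, a relative of the BTG proteins, rose by 0.71, with 0.14 and 0.62 set-adjusted. Of 18 other feedback genes of the ERK pathway and EGR factors 4 rose and 0 fell (medians 0.42 and -0.03). The inhibitors SPRY4, SPRED1 and ERRFI1 and the phosphatase DUSP22 rose by 3.00, 1.79, 0.71 and 2.98, with 1.46, 0.09, 0.05 and 0.48 set-adjusted.

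Of 5 other tested KLF factors 1 rose and 0 fell (medians 0.23 and -0.14), KLF12 with 1.14 and 0.29 set-adjusted. Of 6 genes of the glucocorticoid receptor and its targets 1 rose and 0 fell (medians -0.31 and 0.20), CRISPLD2 with 1.94 and 1.83 set-adjusted. Of 9 genes of YAP, TAZ, TEAD and their targets 4 rose and 1 fell (medians 0.66 and 0.11), TEAD4 being the lower one (-0.76, and -0.16 set-adjusted). CRIM1, TEAD1 and YAP1 rose by 4.03, 1.29 and 4.27, with 2.03, 0.16 and -0.25 set-adjusted, and CRIM1 and YAP1, like MAPK9, ATF2 and SPRY4 above, were under 1 CPM in every control. Over all libraries edgeR called 29 of the 104 tested genes of these 7 lists, where 12.5% of all tested genes were called higher and 5.73% lower. Of the 104, 46 (44.2%) had an unadjusted p under 0.05, against 39.2% of all tested genes. Set-adjusted, edgeR called 0 of the 104 and 5 of all 14432, and 15 of the 104 (14.4%) had an unadjusted p under 0.05, near the 11.6% of all tested genes.

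Markers of liver cells are given here by list, and their part in the member levels was not tested. Over all libraries 8 of the 65 tested markers of the 9 lists were called. Among all tested genes 12.5% were called higher and 5.73% lower. Set-adjusted, edgeR called 0 of the 65 markers. In that fit 12 of them (18.5%) had an unadjusted p under 0.05, against 11.6% of all tested genes. Of 8 macrophage markers 2 fell, C1QC with -1.28 and C1QA with -0.73 (-0.43 and -0.86 set-adjusted), with a list median of -0.37 (-0.47 set-adjusted), and their summed level was 464 to 1234 CPM in controls and 381 to 707 CPM with metformin. Of 7 markers of T and NK cells 1 fell, CD3D with -0.96 (-0.21 set-adjusted), with a list median of -0.59 (0.04 set-adjusted). Their sums were 43.7 to 78.4 CPM in controls and 29.7 to 72.4 CPM with metformin, of which 57.1 to 72.4 CPM in metformin 1, 3 and 4. Of 6 markers of heterophils and thrombocytes 1 fell, AvBD6 with -2.66 (-2.58 set-adjusted). Their list median was -1.70 (-1.38 set-adjusted), the lowest of the 9 marker lists in both fits. Sums over 7 markers in the table were 51.8 to 171 CPM in controls and 12.9 to 60.4 CPM with metformin. Of 5 bile duct markers 1 fell, KRT7 with -0.84 (-0.56 set-adjusted), with a list median of -0.42 (-0.21 set-adjusted) and sums of 56.0 to 87.2 and 38.4 to 62.8 CPM. Of 9 stellate cell and fibroblast markers 1 rose, DCN by 1.87 (-0.04 set-adjusted), while the list's median was -0.20 (-0.04 set-adjusted), with sums of 229 to 505 and 222 to 791 CPM. Of 5 erythroid markers none was called, HBA1 having -1.11 (edgeR adjusted p = 0.0653) and -0.62 set-adjusted. The erythroid list had a median of -0.86 (-0.06 set-adjusted), with sums of 280.0 to 1260.1 and 155 to 613 CPM. Of 6 B and plasma cell markers none was called, BLK having -0.61 (edgeR adjusted p = 0.0755) and -0.30 set-adjusted. This list had a median of 0.20 (0.30 set-adjusted), with sums of 21.4 to 35.7 and 12.4 to 49.7 CPM. Of 8 hepatocyte markers 1 fell, AMBP with -0.71 (-0.77 set-adjusted), while the list's median was 0.28 (-0.65 set-adjusted). The hepatocyte sum was 55614 to 82606 CPM in controls, 31770.2 to 61204 CPM in metformin 1, 3 and 4, 99217 to 114923 CPM in the low set and 71040.4 to 119557 CPM in the high set. None of the markers found in the table was at 0 reads in all libraries.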

How the data were processed

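The authors deposited raw read counts per gene, with 1 column per library. FastQC 0.12.0, Trim Galore 0.6.4, STAR 2.7.11b, HTSeq 0.12.3 and the chicken builds GRCg6a and galGal6, names of a single assembly, are given in the submitters' processing notes. Libraries were made from 200 ng of RNA with a stranded mRNA kit, per the labels' protocols. Whether reads were counted by strand is not stated in the sources used. In the RefSeq gene table of GRCg7b, used only for names and neighbours, 7 members (FOSL2, JUN, DUSP1, KLF4, KLF9, ZFP36L2 and SGK1) overlap another gene, and their reads are uncertain to that extent. Sequences were not used here.

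Summary rows that name no gene were dropped first. The row for reads outside genes held 14.6% to 55.1% of a library. Counts were fitted across all genes with edgeR 4.0.16 in R 4.3.3 (quasi-likelihood test, two-sided, TMM factors, default expression filter, Benjamini-Hochberg adjustment, adjusted p under 0.05), with and without the library set as a covariate. SEs were taken as the log2 fold change divided by the square root of the F statistic. The calculations were tested on simulated counts with known group fold changes and no effect of the library set. That test does not show how either fit behaves where set and metformin coincide. Same-numbered libraries were not shown to be pairs, so the replicate block is an alternative only. Numbers 6 to 10 have no control, so metformin 6 to 10 do not enter its fold changes.

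All members are named. Members called in either fit and FOS, JUN, EGR1, DUSP1, KLF2, SGK1 and MYC have values in every library, except that JUN, KLF2 and MYC have the lowest, median and highest over the 10 metformin libraries. From the 7 related and 9 marker lists, up to 4 called genes with the smallest p are named, or 1 where none was called. A gene that this rule selects is not reported here. The members and lists were chosen with earlier results of these data known. Lists were matched by symbol or RefSeq gene ID and received no test of their own. Alternatives were DESeq2 1.42.0, RLE factors, other filters, robust dispersion, the replicate block, 1 surrogate variable from sva 3.50.0, leaving out library sets and leaving out each library.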

Additional observations from a re-analysis of the deposited data

Results flagged for a closer look

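In the 5 controls, control 2 stood apart from the others in DUSP1, at 265 CPM against 107 to 133 CPM. Control 1 stood apart in DUSP4, at 0.466 CPM (12 reads) against 1.70 to 2.23 CPM. The gap to the nearest other control took up 0.766 and 0.828 of the range on the log2 scale, above the 95% critical value of Dixon's test. Over 64 groups examined (32 members in 2 groups of libraries), chance gives about 1 in 20, and 2 were found.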

How the results depend on the processing

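Of the 6 members called lower and 4 called higher over all libraries, counts ran from 0 to 7 lower and 0 to 6 higher when each library was left out in turn. In the same fits 0 to 2293 of all tested genes were called lower and 0 to 3011 higher. In the middle set only, without the high set and with the replicate number as a block, edgeR called 0 members lower and 0 higher and at most 1 of all tested genes. With the block the fold changes rest on metformin 1 to 5 against the controls, as they do without the high set. At an unadjusted p under 0.05 were 34.4%, 40.6% and 31.2% of the members against 10.2%, 17.4% and 11.8% of all genes, and with the block FOS, RHOB and GADD45B had -2.21, -1.89 and -1.88. Without the low set 4 were lower and 3 higher, as were 366 and 1454 of all 14067 genes tested. Same-numbered libraries correlated by -0.04 to 0.07 over their deviations from the group means, and 2 of 5 controls correlated best with their own number. These values are not evidence of pairs. They cannot exclude pairs either, as the metformin mean spans all library sets. With no filter 6 were lower and 2 higher, as were 659 and 1295 of 20315 genes. RLE factors, the stricter filter (CPM of at least 1 in at least 5 libraries), robust dispersion and DESeq2 gave 6 or 7 lower and 4 to 6 higher. In turn they called 748, 840, 825 and 1142 genes lower and 2048, 1872, 1798 and 3096 higher. The genes tested in them were 14432, 13197, 14432 and 17138. The median log2 fold change of all genes was 0.03 with TMM and 0.185 with DESeq2, which tested 17138 genes. Set-adjusted, 0 members were called, against 2 higher and 1 lower with DESeq2 (161 and 81 of all 15565 genes tested). With no filter 1 was higher (KLF10), as were 19 of 20315 genes. With 1 surrogate variable in place of the set 4 were higher and 6 lower, as were 1734 and 1176 of all 14432 genes. When each library was left out, 0 to 1 were higher. The 1 was KLF10 without control 1, where 166 of 14632 genes were called higher. Direction turned in these cases. With the replicate block, EGR1, IER5 and BTG1 had -0.51, -0.84 and -0.21, and in the middle set EGR1, IER5, BTG1 and ZFP36L1 had -1.44, -0.21, -0.76 and -0.22. Without the high set IER5 had -0.65, and without the low set KLF2 and GADD45A had 0.033 and 0.20. GADD45A had 0.031 with RLE factors and 0.017 with DESeq2. With the surrogate variable, EGR1, BTG1 and ZFP36L1 had 0.62, 0.46 and 1.26. Leaving out each library gave EGR1 -0.043 to 0.97, IER5 -0.070 to 0.30, DUSP10 -0.26 to 0.0095, KLF2 -0.22 to 0.095 and GADD45A -0.16 to 0.15 over all libraries. Set-adjusted it gave FOSL2 -0.17 to 0.57, EGR3 -0.46 to 0.17, IER3 -0.13 to 0.19, DUSP5 -0.43 to 0.28, DUSP10 -0.23 to 0.12, KLF6 -0.29 to 0.96, KLF11 -0.078 to 0.35 and ZFP36L2 -0.071 to 0.37. None of these members was called in the fit concerned except ZFP36L1. The cause of these differences was not tested. The fits that leave some libraries out, and the fold changes with the block, rest on fewer libraries.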
